A study of Homo sapiens with 112 samples.

Results

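Darolutamide at 2 µM was compared with darolutamide at 500 nM in VCaP cells after 22 h. VCaP is an established human prostate cancer cell line that responds to androgen and carries a fusion placing ERG behind the TMPRSS2 promoter. Darolutamide blocks androgen action by competing with the hormone for its receptor, and R1881 (methyltrienolone) is the stable androgen used here. Cells were first starved of steroid hormones for 2 days, the 10% serum having been stripped with charcoal. All cells compared here then received 1 nM R1881, together with either 500 nM or 2 µM darolutamide, so the groups differ 4-fold in antagonist and in nothing else that the labels name. RNA-seq was available for 5 libraries with 2 µM and 4 with 500 nM, 9 of the 112 libraries of the series. The 8 DMSO (vehicle) and 9 R1881 libraries of the same time point, with no darolutamide, gave the scale of the androgen response. Reads were counted per gene, and 19266 of the 58684 genes in the table had at least 10 reads in at least 4 of the 55 VCaP libraries and were tested.

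Steroid receptors bind hormone, enter the nucleus and switch genes on or off from DNA elements. An antagonist occupies the receptor without switching it on, so its effect depends on how much of it is present relative to the hormone. In prostate epithelium the androgen response drives secreted proteases, the secretory pathway and lipid synthesis, and it holds down another set of genes that rise when androgen is withdrawn.

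The counted reads ranged from 21356002 to 24973835 per library with 2 µM and from 19359077 to 20751373 with 500 nM. The 2 µM libraries were deeper (two-sided exact permutation test, p = 0.0159), while the slope of expression on gene GC content did not differ detectably (same exact test, p = 0.881). Each of the 9 libraries held 7789 to 13732 reads of ERG and 4475 to 12647 of TMPRSS2, as the cell line label requires. KRT5 (basal epithelium), PTPRC and CD3E (blood cells) and HBB (red cells) had 0 reads in all 9 libraries, and the summed level of the 16 stromal, endothelial and blood cell markers was 9.62 to 12.1 reads scaled to library size (CPM) with 2 µM and 7.23 to 7.71 with 500 nM. LUM, which encodes an extracellular matrix proteoglycan, was the 1 marker of the 6 tested in that list that was called. It read 0.775, 0.71, 1.05 and 0.812 CPM with 500 nM and 4.05, 4.67, 4.79, 4.66 and 4.08 CPM with 2 µM. Its median was 26.8 CPM with DMSO and 0.189 CPM with R1881. The part of cell composition in these results was not tested.

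The higher dose changed 3889 of the 19266 genes (20.2%) at an adjusted p below 0.05 in edgeR's quasi-likelihood test, the test behind every adjusted p below. Expression rose with 2 µM for 2011 genes (10.4%) and fell for 1878 (9.75%). Most differences were small: the median absolute log2 fold change of the called genes was 0.32, and 332 genes (1.72%) passed 2-fold, 200 higher and 132 lower with 2 µM. The values of the 9 libraries did not overlap between the doses for 3103 of the called genes, against 3813 of all genes tested (19.8%). The libraries of a group are separate samples by their labels. Each adjusted p-value sets a mean difference against the spread within groups, estimated over all 55 VCaP libraries. The number of risen genes was 1208 without the 500 nM replicate 4 and 1296 without the 500 nM replicate 1, while 1923 and 2082 fell. A fit that took each library's GC slope into account called 5971 genes.

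**Figure D1:**
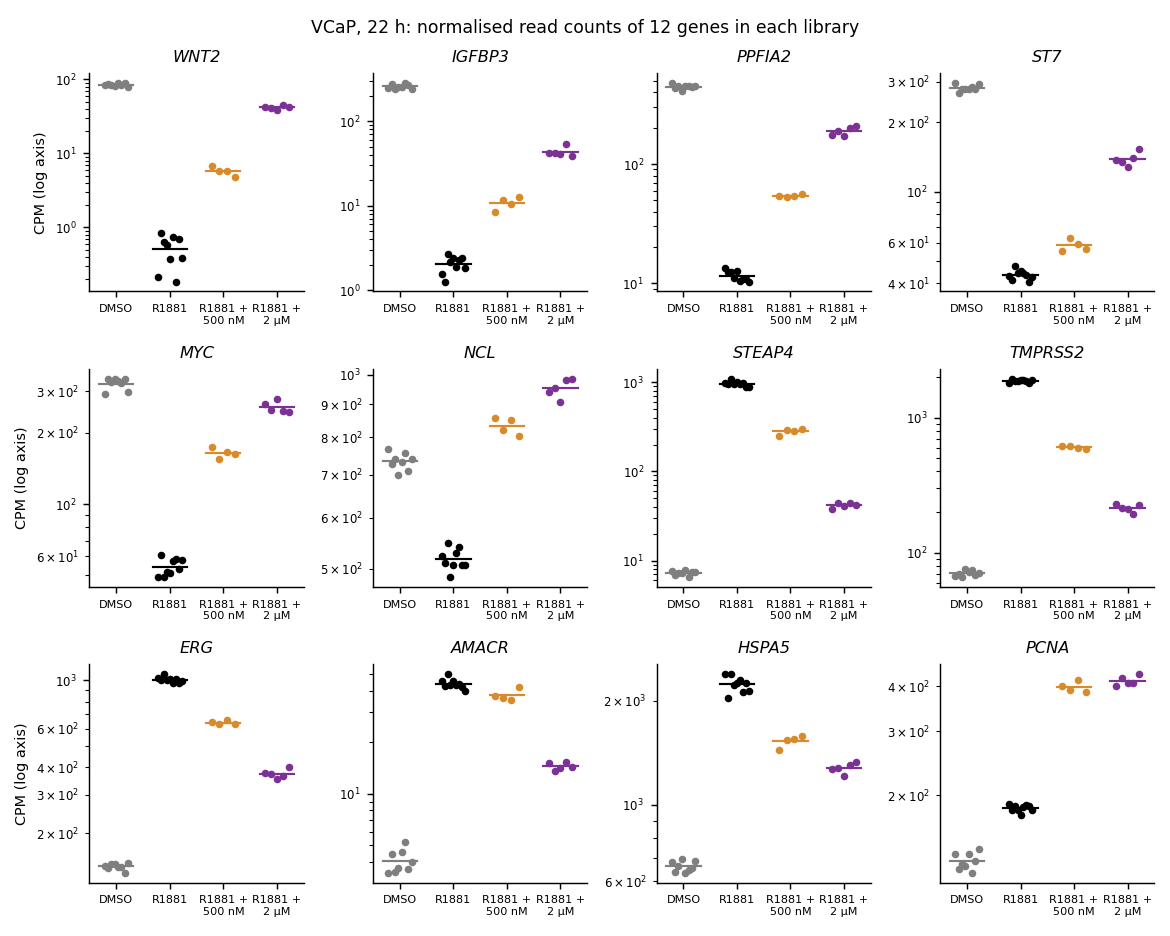
Normalised read count (CPM, log axis) of 12 genes in each VCaP library at 22 h, with 8 DMSO, 9 R1881, 4 R1881 plus 500 nM and 5 R1881 plus 2 µM darolutamide libraries. Points are libraries and short lines are group means. For the genes shown except NCL and PCNA, both darolutamide group means lie between those of R1881 and DMSO, with 2 µM nearer to DMSO.

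Among the called protein-coding genes above the median expression whose doses did not overlap, the largest rises were in genes that R1881 had nearly silenced. Over all genes tested, the log2 differences ran from −3.69 to 4.38. WNT2, a secreted WNT ligand (chromosome 7, 117275451 to 117323152, minus strand, GRCh38), read 6.78, 5.73, 5.70 and 4.82 CPM with 500 nM. With 2 µM it read 42.4, 41.4, 39.2, 44.7 and 42.4 CPM. Every 2 µM library exceeded every 500 nM library by a wide margin. The log2 difference was 2.86 ± 0.091 (SE), or 7.28-fold (adjusted p = 1.36e-32). Its median was 83.9 CPM with DMSO and 0.574 CPM with R1881. WNT2 was therefore lower with 2 µM than with DMSO by a log2 value of −1.01, and with 500 nM by −3.87.

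IGFBP3 (chromosome 7, 45912245 to 45921874), a binding protein that holds insulin-like growth factors in the extracellular space, showed the same order. It read 8.38, 11.5, 10.3 and 12.5 CPM with 500 nM and 42.3, 42.5, 40.7, 53.6 and 38.7 CPM with 2 µM, a difference of 2.03 ± 0.093 on the log2 scale (4.08-fold). The ranges did not overlap. With DMSO its median was 252.7 CPM, so in CPM most of the expression lost with R1881 was still missing at the higher dose. Its log2 value against DMSO was −6.98 with R1881 and −2.56 with 2 µM. PPFIA2 (chromosome 12, 81257975 to 81759553), a liprin that organises synaptic release sites, went from 52.5 to 56.2 CPM with 500 nM to 173 to 210 CPM with 2 µM (log2 difference 1.81 ± 0.068). ALB, the gene of serum albumin, and NAALAD2, a peptidase related to the prostate membrane antigen, rose by 1.97 and 1.74. Of these 5 genes, WNT2 came nearest to its DMSO level.

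ST7 (chromosome 7, 116953238 to 117230176, plus strand) is the neighbour of WNT2 and was picked out after its values were seen. It read 55.3, 63.0, 59.0 and 56.2 CPM with 500 nM and 137, 135, 127, 141 and 153 CPM with 2 µM, against medians of 43.2 CPM with R1881 and 280 CPM with DMSO. The lower dose had moved it little from the R1881 level (log2 0.42), and the higher dose moved it by a further 1.25 ± 0.052. Over all genes tested, 53% differed between 500 nM and R1881 and 66.9% between 2 µM and R1881.

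Among the same called, non-overlapping protein-coding genes above the median expression, the largest falls were in classical androgen-induced genes. STEAP4, a metalloreductase (chromosome 7, 88270892 to 88306894), read 252, 290, 282 and 299 CPM with 500 nM. In the 2 µM libraries it read 37.8, 43.7, 41.2, 44.1 and 41.5 CPM. No library of either dose came near the other group, and the difference was −2.75 ± 0.067 on the log2 scale, 6.73-fold lower with 2 µM (adjusted p = 6e-38). The R1881 median was 948.7 CPM and the DMSO median 7.37 CPM, so even the 2 µM group stayed above vehicle (log2 2.52).

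NCAPD3, a condensin II subunit that R1881 raised to 5528 CPM (median), read 1321, 1436, 1338 and 1635 CPM with 500 nM. It read 389, 398, 385, 465 and 407 CPM with 2 µM (3.5-fold lower). TMPRSS2, the membrane protease whose promoter drives ERG in these cells (chromosome 21, 41464300 to 41531116), read 613, 613, 596 and 587 CPM against 230, 215, 210, 195 and 224 CPM (2.8-fold lower). FKBP5, a co-chaperone of steroid receptors (chromosome 6, 35573585 to 35728583), read 476, 548, 519 and 538 CPM against 188, 192, 182, 205 and 200 CPM (2.69-fold lower). The doses did not overlap for any of these genes. RFPL2, of the RET finger protein-like family, completed the 5 largest falls of that set. It read 64.2 to 73.0 CPM at 500 nM and 17.5 to 24.1 CPM at 2 µM (log2 −1.71 ± 0.066).

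The dose difference was next set against the R1881 response, R1881 minus DMSO at 22 h. These contrasts share no library. R1881 changed 14910 genes (77.4%; 37.4% up and 40% down), so most dose-called genes were also R1881-called. Of 3789 genes called for both, the higher dose moved 3735 (98.6%) against the R1881 response: 1930 rose that R1881 had repressed and 1805 fell that R1881 had induced. Across all genes tested the Pearson correlation of the log2 fold changes was −0.73, a description over genes, which are not independent replicates and share their mean expression in both contrasts.

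The share of genes called for dose grew with the size of the R1881 response. It was 7.25% of the 9247 genes with an absolute R1881 log2 fold change below 0.5, 37.7% of the 3254 genes between 1 and 2, and 65.5% of the 249 genes above 4. Of the 1352 genes whose R1881 response passed a log2 of 2, 741 (54.8%) were called for dose and 739 of these moved against R1881. How much of the response the step from 500 nM to 2 µM removed was expressed as the dose log2 fold change in percent of the R1881 log2 fold change, with the sign reversed. Its median over the 1352 genes was 24.9% (quartiles 16.7% and 31.7%), with 26.4% for the 442 induced and 24.1% for the 910 repressed genes.

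**Figure D2:**
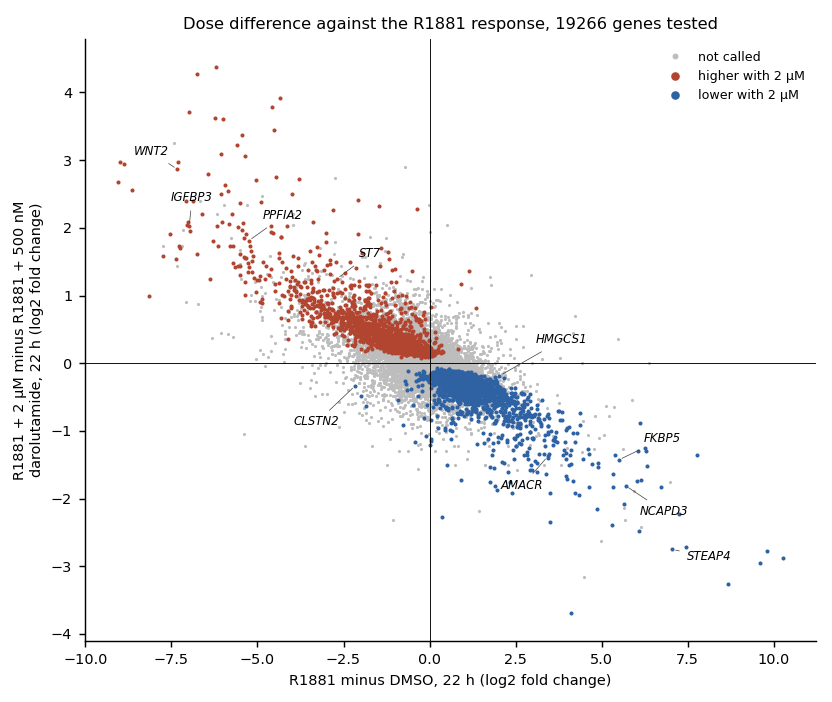
Log2 fold change of 2 µM against 500 nM darolutamide (vertical axis) and of R1881 against DMSO (horizontal axis) at 22 h, 1 point per gene tested. Genes called higher with 2 µM (red) lie mostly where R1881 lowered expression and genes called lower (blue) mostly where R1881 raised it; 3735 of the 3789 genes called in both contrasts moved against R1881, and CLSTN2 moved with it.

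The step differed between genes with strong R1881 responses above the median expression, and the genes at its ends were chosen after their values were seen, apart from RFPL2, SAT1, ATP2B4, AMACR and CLSTN2. It was 46.2% for ST7, 42.9% for RFPL2, 42.6% for SAT1, 42.2% for TRIB2, 40.2% for ATP2B4 and 40.1% for AMACR. AMACR, the racemase that prepares branched fatty acids for oxidation and a tissue marker of prostate cancer (chromosome 5, 33986165 to 34008104), read 37.1, 36.3, 35.5 and 41.9 CPM with 500 nM. That is close to its R1881 range of 39.7 to 50.0 CPM. With 2 µM it read 15.2, 13.7, 14.1, 15.3 and 14.3 CPM, 2.6-fold lower. TRIB2, a pseudokinase, behaved alike, with log2 values of −0.22 for 500 nM and −1.12 for 2 µM, each against R1881. SAT1, which acetylates polyamines for export, fell from 65.8 to 83.2 CPM with 500 nM to 29.3 to 36.9 CPM with 2 µM. That lies below its DMSO median of 48.8 CPM and below every DMSO library.

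At the other end, the step was lowest for CLSTN2, at −15.4%, as this gene moved with R1881. The step was 9.2% for HMGCS1, the first committed enzyme of the mevalonate pathway, and 8.86% for MGP, an inhibitor of matrix calcification. It was 1.71% for DCLK1, a doublecortin-like kinase, which was not called for dose (adjusted p = 0.87): 500 nM already read 9.08 to 10.2 CPM and 2 µM read 8.41 to 11.1 CPM, both between R1881 (median 3.65 CPM) and DMSO (median 13.7 CPM). The call for MGP was lost without the 500 nM replicate 1 or 4 (adjusted p = 0.167 in each case), the 500 nM replicate 2 (0.0853) or the 2 µM replicate 5 (0.0943).

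Only 54 genes moved with the R1881 response, 23 up and 31 down, with a median absolute log2 difference of 0.20. ALDH1A1, which makes retinoic acid, rose by 0.37 ± 0.062, from 91.7 to 103 CPM with 500 nM to 117 to 137 CPM with 2 µM, while R1881 alone raised it by 0.18. HK2, the first enzyme of glycolysis, rose by 0.26, although its dose groups overlapped. TBC1D4, which controls glucose transporter traffic, rose by 0.21, and its call was lost without the 500 nM replicate 1 (adjusted p = 0.119) or 4 (0.0839). Among the genes that fell, CLSTN2, a synaptic calsyntenin, had a strong R1881 response (log2 −2.16) and stood at 22.0 to 25.8 CPM with 500 nM and 17.0 to 21.1 CPM with 2 µM (−0.33 ± 0.074). ARHGDIB fell by 0.40, and NCALD, a neuronal calcium sensor, by 0.30. For ARHGDIB, 500 nM had carried expression above the DMSO range of 15.9 to 20.5 CPM, to 23.1 to 27.4 CPM, and the 2 µM libraries at 16.8 to 22.3 CPM were nearer to it.

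A further 100 dose-called genes (58 up, 42 down) were not called for R1881. NWD1, an NLR-related gene, was near 118 CPM with DMSO and 115 CPM with R1881 (medians), 70.3 to 75.3 CPM with 500 nM and 56.4 to 64.7 CPM with 2 µM (log2 −0.27 ± 0.048). It was thus lower than both controls at either dose. CAMK1D and ZNF83 fell by 0.27 each. RRS1, a ribosome assembly factor, rose by 0.34, WNK3, a kinase of ion transport, by 0.31 and TDRD3, a methylarginine reader, by 0.29. The dose groups overlapped for RRS1 and TDRD3, and the call for TDRD3 was lost without the 500 nM replicate 1 (adjusted p = 0.056), 2 (0.0683) or 4 (0.0551). The call for WNK3 was lost without the 500 nM replicate 1 (0.129), 2 (0.0611) or 4 (0.121) or the 2 µM replicate 5 (0.0565). Over all genes with no R1881 call, the count was 65 without the 500 nM replicate 1 and 60 without replicate 4.

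Gene lists were written from general knowledge, with earlier results of these data known, and then counted. They are to be read against 10.4% of genes rising, 9.75% falling and a median log2 difference of 0.03 over all genes tested. Of the 50 androgen-induced prostate genes tested, 42 fell with 2 µM and 2 rose, and the median difference was −0.50. KLK3, the gene of prostate-specific antigen (chromosome 19, 50854915 to 50860764), read 63.6, 62.2, 64.0 and 74.6 CPM with 500 nM. It read 35.0, 34.8, 35.3, 35.5 and 33.5 CPM with 2 µM (log2 −0.93 ± 0.082). The related protease gene KLK2 read 5354 to 5682 CPM and 3759 to 4183 CPM (−0.47 ± 0.040). Both stayed above the DMSO range, and because they are closely related, reads could have been split between them.

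ERG (chromosome 21, 38380027 to 38661780), the ETS factor expressed from the fusion, read 643, 630, 658 and 630 CPM with 500 nM and 375, 371, 352, 366 and 402 CPM with 2 µM, 1.71-fold lower. It followed TMPRSS2 in direction but with a smaller log2 difference, −0.78 against −1.49. IGF1R, the receptor for insulin-like growth factor, fell by 0.62. PMEPA1, a regulator of TGF-beta signalling, showed a step of 12.5%, reading 1363 to 1419 CPM with 500 nM, 1240 to 1256 CPM with 2 µM and 1453 to 1518 CPM with R1881. ORM1 and ORM2, neighbouring acute-phase protein genes chosen after their values were seen, fell by 2.78 and 2.88. They were at 0 to 0.27 CPM with DMSO and are near-identical, so their separate values are uncertain. PTGER4 and ADAMTS1, a prostaglandin receptor and a secreted protease, were the 2 members that rose (0.31 and 0.39), and R1881 had lowered both.

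The KLK3 start region is shown because it holds the proximal androgen response element and the gene tracked the dose in every library. The 300 bases (RefSeq, GRCh38.p14, chr19:50854665-50854964, plus strand) run from 250 bases before the gene start to 50 after it, with the androgen response element in capitals. It was searched on both strands as AGAACA, any 4 bases, GT, any base and CT.
KLK3: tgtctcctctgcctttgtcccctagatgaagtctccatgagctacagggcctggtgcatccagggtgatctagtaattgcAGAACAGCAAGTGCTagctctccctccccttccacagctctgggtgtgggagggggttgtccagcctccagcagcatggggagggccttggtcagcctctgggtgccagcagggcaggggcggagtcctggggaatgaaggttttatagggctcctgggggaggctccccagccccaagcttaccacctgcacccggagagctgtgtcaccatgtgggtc
Of the 27305 promoters of the table, 38 (0.139%) held these letters, and of the 38 androgen-induced genes matched in it, KLK3 was the 1 that did. The match is a description of the sequence.

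The androgen-repressed list moved the other way, with 15 of 23 tested genes rising and 3 falling (median 0.71). MET, the receptor for hepatocyte growth factor, rose by 1.56, OPRK1, an opioid receptor, by 1.66, FOLH1, the prostate-specific membrane antigen, by 1.2, and WNT5A, a non-canonical WNT ligand, by 0.82. The 3 that fell were CDKN1A, a CDK inhibitor, CCND1, a G1 cyclin, and NRXN3, a synaptic adhesion protein. R1881 had raised all 3 here, CDKN1A by 2.03, CCND1 by 1.05 and NRXN3 by 0.24, so for them too the higher dose moved against the androgen. UGT2B15, a glucuronosyltransferase that inactivates androgens, read 1.26, 1.07, 1.29 and 1.37 CPM with 500 nM and 3.37, 3.56, 3.57, 3.88 and 4.73 CPM with 2 µM (log2 1.61), and its close relative UGT2B17 rose by 1.73. Reads may be shared between the pair. HSD17B6 and AKR1C3, which interconvert steroids, AKR1C3 also towards testosterone, rose by 0.71 and 0.64. In all, 6 of the 17 androgen and steroid enzymes tested rose, 1 fell and 10 were not called (median 0.39). Falls numbered 0 without the 500 nM replicate 2 or 3 and 2 without replicate 1.

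**Figure D3:**
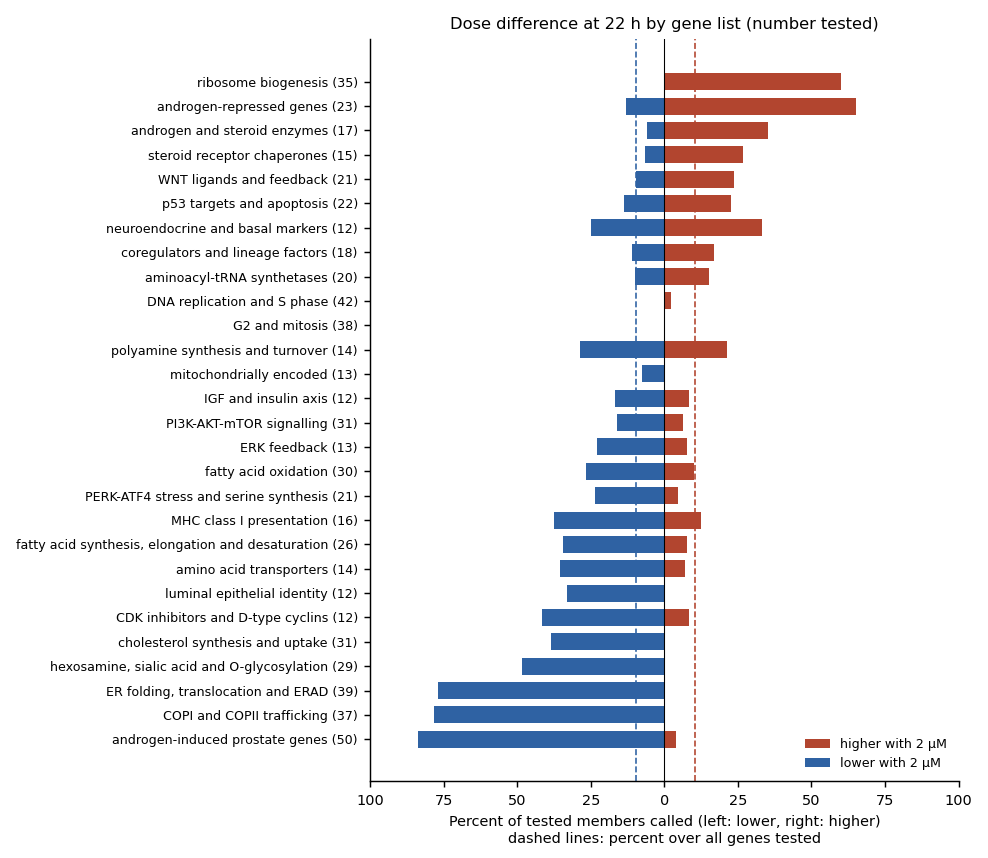
Percent of the tested members of each gene list called higher (right, red) or lower (left, blue) with 2 µM than with 500 nM darolutamide at 22 h, for the 28 lists with at least 12 genes tested; dashed lines mark 10.4% and 9.75%, the values over all genes tested. Androgen-induced, COPI and COPII, and endoplasmic reticulum genes extend furthest to the left and ribosome biogenesis and androgen-repressed genes furthest to the right, while the 2 cell-cycle lists are nearly empty.

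Genes of the secretory pathway fell together. In the list for folding, translocation and degradation in the endoplasmic reticulum (ER), 30 of 39 genes fell and 0 rose, with a median of −0.32. R1881 had raised 38 of the 39. HSPA5, the major ER chaperone (chromosome 9, 125234853 to 125241382), read 1443, 1542, 1550 and 1577 CPM with 500 nM. It read 1268, 1276, 1215, 1305 and 1326 CPM with 2 µM (log2 −0.26 ± 0.042), against medians of 2256 CPM with R1881 and 661 CPM with DMSO. The fall was 1.2-fold and still left the doses separated. ERN1, the IRE1 stress sensor, read 36.6 to 42.0 CPM with 500 nM and 23.1 to 26.0 CPM with 2 µM, the latter inside its DMSO range of 21.6 to 27.6 CPM. PDIA5, a disulfide isomerase, fell by 0.50, DNAJB9, an ER co-chaperone, by 0.61, and EDEM1, which marks misfolded glycoproteins, by 0.55. ATF6, the third sensor branch, was at 0.01 (adjusted p = 0.905).

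HSPA5 and CALR, the gene of calreticulin, are shown from the same table because their start regions hold the ER stress response element, here in capitals. It was searched on both strands as CCAAT, any 9 bases and CCACG. HSPA5 lies at chr9:125241294-125241593 (minus strand) and CALR at chr19:12938359-12938658 (plus strand), GRCh38.p14.
HSPA5: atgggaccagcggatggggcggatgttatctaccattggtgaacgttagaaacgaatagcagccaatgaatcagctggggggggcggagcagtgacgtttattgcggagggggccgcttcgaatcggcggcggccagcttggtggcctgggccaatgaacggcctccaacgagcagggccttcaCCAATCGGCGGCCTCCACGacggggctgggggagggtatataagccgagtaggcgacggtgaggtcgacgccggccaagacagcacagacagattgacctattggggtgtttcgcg
CALR: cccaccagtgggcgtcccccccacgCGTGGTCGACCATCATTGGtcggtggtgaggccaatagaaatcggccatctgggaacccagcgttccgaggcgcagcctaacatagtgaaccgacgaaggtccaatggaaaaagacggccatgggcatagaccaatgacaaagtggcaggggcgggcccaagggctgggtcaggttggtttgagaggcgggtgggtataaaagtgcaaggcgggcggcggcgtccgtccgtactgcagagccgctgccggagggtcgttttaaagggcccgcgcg
These letters stood in 7 of 36 ER genes matched (19.4%) and in 22 of all 27305 promoters (0.0806%). The 7 were CALR, CANX, CRELD2, ERO1B, HSP90B1, HSPA5 and XBP1. Of them, 5 fell, with log2 differences from −0.16 for CALR to −0.51 for ERO1B. HSP90B1 (−0.12) and CRELD2 (−0.30) did not pass the test. ERN1 and PDIA5 have the smallest adjusted p of the list and are not among the 7.

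Transport between the ER and the Golgi followed. Of 37 COPI and COPII genes, 29 fell and 0 rose (median −0.24). SEC24D, a cargo adaptor of COPII coats, read 75.5, 77.0, 85.5 and 86.4 CPM with 500 nM and 46.0, 47.7, 42.8, 47.3 and 51.1 CPM with 2 µM (1.73-fold lower). KDELR3, which returns ER proteins from the Golgi, fell by 1.10. The membrane-bound factors CREB3L4 and CREB3L2, which switch on secretory genes, fell by 0.54 and 0.48. Among 29 genes of hexosamine, sialic acid and O-glycan synthesis, 14 fell and 0 rose (median −0.15), with 1 rise without the 2 µM replicate 1 and 2 without the 500 nM replicate 2. GNE, the first enzyme of sialic acid synthesis, fell by 0.59 and B4GALT1, a galactosyltransferase, by 0.54. UAP1, which makes UDP-N-acetylglucosamine, fell by 0.51.

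Lipid synthesis genes also fell in part. Of 31 cholesterol synthesis and uptake genes, 12 fell and 0 rose (median −0.20), and with the GC slope in the fit 20 fell. HMGCS1 read 406 to 447 CPM and 349 to 407 CPM, with overlap, against 449 to 525 CPM with R1881 and 109 to 126 CPM with DMSO. Both doses thus sat near the R1881 end for HMGCS1, and its call for dose was lost without the 500 nM replicate 2 (adjusted p = 0.0515). STARD4, a sterol carrier, fell by 0.84 and INSIG1, the sterol sensor, by 0.54. SQLE, which makes squalene epoxide, was at −0.01 and did not pass the test. In fatty acid synthesis 9 of 26 genes fell and 2 rose (median −0.14): ACSL3, an acyl-CoA synthetase of lipid droplets, fell by 1.09, FADS2, a desaturase, by 0.78 and SCD, another, by 0.45, and FABP5, a fatty acid carrier, rose by 0.70. FASN, fatty acid synthase, read 1078 CPM in the 2 µM replicate 3 and 395 to 607 CPM in the other 2 µM libraries. It also spread with R1881 (848 to 2488 CPM). FASN was not called for dose (adjusted p = 0.597), whereas with the GC slope in the fit it was (log2 −0.35, adjusted p = 3.3e-06). Fatty acid oxidation had 8 falls and 3 rises among 30 genes (median −0.04), and 1 rise without the 500 nM replicate 1 or 4. AMACR and CPT1A, which admits fatty acids to mitochondria (−0.28), had the smallest adjusted p, and HADH, a dehydrogenase of beta-oxidation, rose by 0.23.

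Ribosome biogenesis genes rose. Of 35 tested, 21 rose and 0 fell, and 34 had a positive log2 difference, with a median of 0.19. The count was 14 when the 500 nM replicate 1 or 4 was left out. MYC, the factor that drives ribosome production, is in this list and had its largest change: it read 174, 155, 166 and 163 CPM with 500 nM and 266, 249, 280, 248 and 246 CPM with 2 µM (log2 0.65 ± 0.084), between medians of 52.9 CPM with R1881 and 330.5 CPM with DMSO. NCL, nucleolin, read 857, 821, 851 and 803 CPM against 941, 954, 906, 983 and 986 CPM (log2 0.20). Here both dose groups lay above DMSO, whose range was 699 to 767 CPM. WDR12 and WDR3, subunits of ribosome assembly complexes, rose by 0.34 and 0.27. POLR1A and POLR1B, the large subunits of RNA polymerase I, rose by 0.22 and 0.26, and RRP1B, another nucleolar protein, by 0.20. Over the list, the median log2 value against DMSO was −0.38 with R1881, 0.23 with 500 nM and 0.39 with 2 µM.

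FBL, the gene of the nucleolar methyltransferase fibrillarin, rose by 0.19 and is shown because its start region (chr19:39846330-39846629, minus strand, GRCh38.p14) holds the E-box CACGTG, in capitals, the element that MYC and related factors can bind.
FBL: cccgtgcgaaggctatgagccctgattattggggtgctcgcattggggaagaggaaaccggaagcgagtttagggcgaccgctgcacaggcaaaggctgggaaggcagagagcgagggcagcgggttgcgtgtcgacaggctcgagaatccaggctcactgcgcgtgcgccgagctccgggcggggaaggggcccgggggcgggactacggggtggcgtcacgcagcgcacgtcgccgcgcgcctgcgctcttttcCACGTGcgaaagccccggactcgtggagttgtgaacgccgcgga
The E-box stood in 10 of the 27 ribosome biogenesis promoters matched (37%) and in 2030 of all 27305 (7.43%). In the other lists the share ran from 0 to 30%, with 19.4% for the ER list and 20.8% for the cholesterol list. Among the 10 ribosome biogenesis genes, FBL, PNO1, WDR43 and CIRH1A rose, and BYSL, NOP2, NOP10, PES1, RRP9 and UTP20 did not pass the test. Over the whole ribosome biogenesis list 21 of 35 rose.

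Cell-cycle genes hardly differed between the doses. Of 42 DNA replication and S phase genes, 1 rose (PRIM1, the primase subunit, by 0.29) and 0 fell, with a median of -0.0026. Without the 500 nM replicate 4 the call for PRIM1 was lost (adjusted p = 0.0537). With the GC slope and the replicate block together, 7 genes of this list fell and 2 rose. Of 38 G2 and mitosis genes, 0 were called, with a median of 0.07 and values from −0.15 to 0.17, although 8 rose with the GC slope in the fit and 1 gene was called when any of 5 libraries was left out (2 µM replicates 1 and 5, 500 nM replicates 1, 3 and 4). PCNA, the replication clamp, was chosen after its values were seen. It read 401, 390, 417 and 385 CPM with 500 nM and 401, 421, 409, 407 and 431 CPM with 2 µM, and the doses overlapped. Both lay above R1881 (177 to 189 CPM) and above DMSO (122.5 to 142 CPM). The whole replication list was likewise called higher than DMSO at both doses, 42 of 42 genes (62.7% of all genes differed from DMSO with 500 nM and 59% with 2 µM), with medians of 1.5 with 500 nM and 1.53 with 2 µM, while R1881 alone had a median of 0.32 against the same DMSO libraries. MKI67 and CCNB1, markers of cycling and mitotic cells, differed between doses by −0.03 and 0.02. Of 12 CDK inhibitors and D-type cyclins with their partners, 5 fell, CDKN1A by 0.38 and CCND1 by 0.19 among them, and CDK4 rose by 0.18. Without the 2 µM replicate 5, 3 fell, and without the 500 nM replicate 4, 0 rose.

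**Figure D4:**
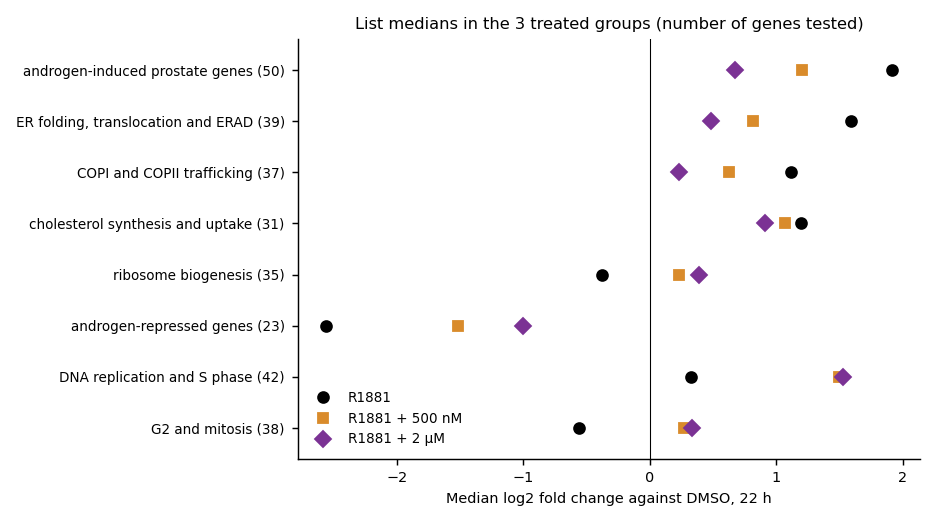
Median log2 fold change against the 8 DMSO libraries at 22 h over the tested genes of 8 lists, for R1881 alone, R1881 plus 500 nM and R1881 plus 2 µM darolutamide. In the androgen, secretory and cholesterol lists the 3 medians are ordered by dose, with 2 µM nearest 0; for DNA replication the 2 doses nearly coincide at 1.5 and 1.53, above R1881 at 0.32. The 3 values of a list share the DMSO libraries.

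The same doses had also been compared after 8 h, in 5 and 4 other libraries. At 8 h, 3386 genes were called (17.6%), 1450 higher (7.53%) and 1936 lower (10%) with 2 µM. Both time points called 1734 genes, 44.6% of the 22 h calls and 51.2% of the 8 h calls, and 1642 of these had the same direction. The change of the dose difference with time was itself called for 1156 genes (6%). The dose difference had opposite signs at the 2 time points for 613 of them, and it was larger in size at 22 h for 603 and at 8 h for 553.

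WNT2, STEAP4, ALB and ATP2B4 had larger dose differences at 22 h. STEAP4 went from −1.27 at 8 h to −2.75 at 22 h (change −1.48 ± 0.091, adjusted p = 2.64e-18). At 8 h it read 341 to 368 CPM with 500 nM and 141 to 152.5 CPM with 2 µM. Between 8 and 22 h the 2 µM group fell and the 500 nM group fell less. FADS2 had no detectable dose difference at 8 h (0.06) and −0.78 at 22 h, and ATP2B4, a plasma membrane calcium pump, went from −0.22 to −1.34. FKBP5 and NCAPD3 already had differences of −1.61 and −1.53 at 8 h; for FKBP5 a change with time did not pass the test (adjusted p = 0.0942).

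RDH10, which oxidises retinol, had the opposite course and the largest positive change with time among the named genes. At 8 h it read 285, 300.2, 274 and 293 CPM with 500 nM and 37.8, 44.1, 41.7, 40.1 and 37.8 CPM with 2 µM, a log2 difference of −2.84 ± 0.084. At 22 h it read 12.3, 11.1, 13.6 and 13.7 CPM against 12.6, 14.4, 14.2, 17.6 and 14.1 CPM. The doses then overlapped and the difference of 0.20 was not called (adjusted p = 0.173). TIPARP, a target of the aryl hydrocarbon receptor, went from −1.93 to −0.35, and HSPA5 from −0.55 to −0.26. ALDH1A1 changed sign, from −0.30 at 8 h to 0.37 at 22 h. So did CYP1A1, another aryl hydrocarbon receptor target, chosen after its values were seen, from −0.60 to 0.82. Its 22 h call was lost without the 500 nM replicate 1 (adjusted p = 0.052). It read at most 1.79 CPM in the 9 libraries at 22 h, and its R1881 median was 3.89 CPM.

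**Figure D5:**
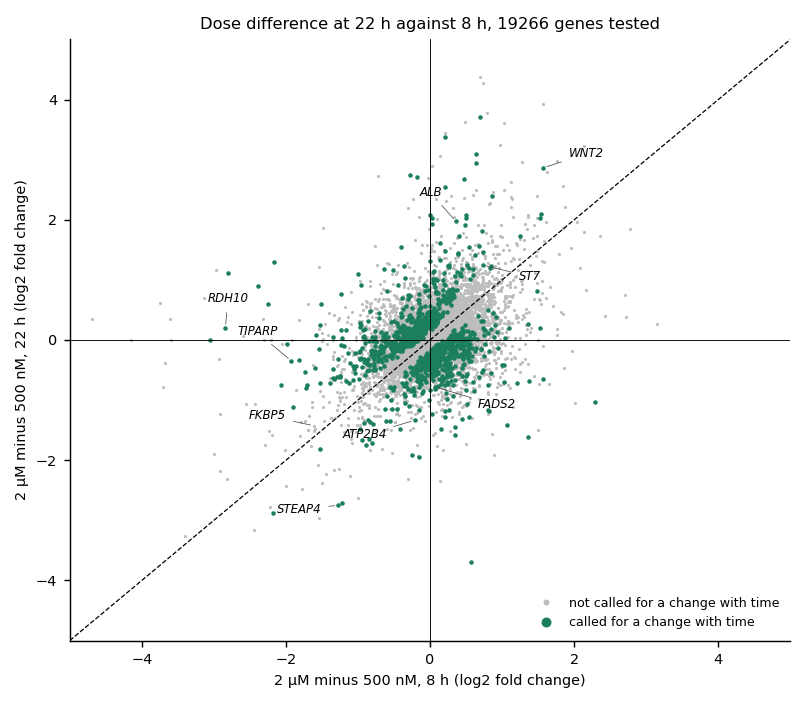
Log2 fold change of 2 µM against 500 nM darolutamide at 22 h (vertical axis) and at 8 h (horizontal axis), 1 point per gene tested; green points are the 1156 genes called for a change with time and the dashed line marks equal differences. RDH10 and TIPARP lie far to the left with little difference at 22 h, and STEAP4, WNT2 and ALB lie further from 0 at 22 h than at 8 h.

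In LAPC4, a second androgen-responsive prostate cancer line, the same comparison of 5 against 5 libraries at 22 h called 47 of 18204 genes (0.258%), 8 higher and 39 lower with 2 µM, and DESeq2 called 58. FKBP5 fell by 0.26 (adjusted p = 0.000874) and TMPRSS2 by 0.17 (adjusted p = 0.00918). Both differences were smaller than those in VCaP. NCAPD3 (−0.07) and KLK3 (−0.30) did not pass the test there, and WNT2 was not tested in LAPC4. Of the 47 genes, 45 were tested in VCaP and 31 were called there, against 20.2% of all genes tested in VCaP. Of these 31, 22 had the same direction in both lines and the rest had opposite directions. The difference between the lines was not tested.

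Metabolic lists outside lipids had calls in both directions, to be read against 10.4% of all genes tested rising and 9.75% falling. Among 14 polyamine genes 4 fell and 3 rose (median −0.01). The synthetic enzymes ODC1 and SMS fell by 0.83 and 0.89 along with SAT1 (−1.14), and ARG2, an arginase, rose by 0.50. Of 14 amino acid transporters 5 fell and 1 rose (median −0.02). Without the 2 µM replicate 2, 4 or 5 or the 500 nM replicate 2 or 3, 3 fell, and rises ranged from 0 to 2 with 1 library left out. The called members included SLC36A1 at −0.41 and SLC1A4 at −0.38. In the list for PERK, ATF4 and serine synthesis 5 of 21 fell and 1 rose (median −0.02), with 0 rises without the 500 nM replicate 1 or 4 and 2 without the 2 µM replicate 5. EIF2AK3, the PERK kinase, fell by 0.38 and DDIT4, an mTOR inhibitor, by 0.47. Of 20 aminoacyl-tRNA synthetases, 3 rose and 2 fell (median 0.06). Only 1 rose without the 2 µM replicate 3 or 5 or the 500 nM replicate 1 or 4, and 1 fell without the 2 µM replicate 2 or 5 or the 500 nM replicate 3. FARSB rose by 0.27. CARS fell by 0.22 with overlapping doses, and its call was lost without the 2 µM replicate 5 (adjusted p = 0.0853) or the 500 nM replicate 4 (0.0585). The 8 aryl hydrocarbon receptor targets held 3 falls (CYP1B1, NQO1 and TIPARP) and the rise of CYP1A1.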

How the data were processed

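The authors grew VCaP cells for 2 days in 10% charcoal-stripped serum, added 1 nM R1881 with or without darolutamide, and made stranded mRNA libraries read for 50 bases. The methods give 5 biological replicates per condition, whereas the labels give 4 libraries with 500 nM, 8 with DMSO and 9 with R1881. Per the labels, bcl2fastq 2.17, STAR, featureCounts and GRCh38 were used. The deposited table holds raw read counts per gene. Strand setting, annotation and the rule for multi-mapping reads are not given in the sources used here, so ORM1 and ORM2, KLK2 and KLK3, UGT2B15 and UGT2B17, and HLA-B are uncertain. ChIP-seq was not analysed here, and some genes of the lists, among them genes that the naming rule picks, are counted but not reported here.

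Genes reaching 10 reads in 4 or more VCaP libraries were fitted over the 8 VCaP groups (55 libraries) with TMM scaling and the quasi-likelihood test of edgeR 4.0.16 (R 4.3.3), with Benjamini-Hochberg adjustment at 0.05. LAPC4 was fitted separately. The code was tested on simulated data. Alternatives were DESeq2 1.42.0, other scaling and filters, the compared groups alone, a replicate block, a GC slope and leaving out each library. GC content and gene position were matched for 16118 of the 19266 genes (83.7%). CPM values use TMM library sizes. Positions are from GENCODE 44.

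Named genes were protein-coding and above the median expression: the 5 largest rises and falls without overlap, the 3 largest each way with the R1881 response, without an R1881 call, and for change with time. At any expression, the 2 called members of each list with the smallest adjusted p and 8 canonical genes were added. ST7, TRIB2, MGP, DCLK1, HMGCS1, PCNA, CCNB1, MKI67, HSPA5, NCL, FASN, CYP1A1, ORM1, ORM2 and further list members were chosen after their values were seen. The comparison, gene lists and members were chosen with earlier results of these data known.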

Additional observations from a re-analysis of the deposited data

Results flagged for a closer look

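Single libraries stood apart from the rest of their dose group for 10 of the 186 sets of values examined, by the gap to the nearest library against the range of the group. Chance alone flags about 1 in 20 such sets. In the 2 µM group, replicate 3 was apart for 4 genes: HK2 at 32.5 CPM (others 37.1 to 37.6), AHSA1 at 119 CPM (134 to 136), CHGB at 28.7 CPM (33.3 to 34.1) and JUN at 23.8 CPM (17.9 to 19.2). Replicate 4 was high for IGFBP3, with 53.6 CPM against 38.7 to 42.5 CPM, and replicate 2 was low for TIPARP, with 8.23 CPM against 9.49 to 9.99 CPM. In the 500 nM group, replicate 3 was high for WNK3 (8.24 CPM, others 7.17 to 7.26) and for MGP (4.65 CPM, others all 3.2). Replicate 4 was high for KLK3 (74.6 CPM, others 62.2 to 64.0) and low for MT-ND6 (4.52 CPM, others 6.24 to 6.61).

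The dose difference changed between 8 and 22 h for 43 of the 93 named genes, by the interaction term of the edgeR fit. Over all 19266 genes tested it changed for 1156 (6%). Some genes were named for this change or for a large difference at 22 h, so the 43 follows partly from the choice of genes. The change is the log2 difference of 2 µM against 500 nM at 22 h minus that at 8 h. It was positive for RDH10 (3.04), ALB (1.62), TIPARP (1.58), LUM (1.54), CYP1A1 (1.42), NAALAD2 (1.33), WNT2 (1.30), PPFIA2 (1.09), WNK3 (0.81), ALDH1A1 (0.67), FOXO3 (0.57), ST7 (0.52), IGFBP3 (0.50), ERN1 (0.33), HSPA5 (0.30), CHGB (0.28) and AHSA1 (0.19). It was negative for STEAP4 (−1.48), MYO1G (−1.43), ATP2B4 (−1.12), RFPL2 (−0.90), FADS2 (−0.84), NCALD (−0.82), ORM2 (−0.70), ARHGDIB (−0.63), SAT1 (−0.62), KLK3 (−0.58), HLA-B (−0.58), CLSTN2 (−0.53), CYP1B1 (−0.52), TMPRSS2 (−0.51), AMACR (−0.46), NWD1 (−0.42), DDIT4 (−0.41), NQO1 (−0.41), PDIA5 (−0.31), OCLN (−0.31), NCAPD3 (−0.28), CREB3L4 (−0.27), ERG (−0.23), KLK2 (−0.22), B4GALT1 (−0.19) and PMEPA1 (−0.18). For RDH10 and TIPARP a positive change stands for a fall at 8 h that was smaller or not called at 22 h, while for WNT2 and ALB it stands for a rise that was larger at 22 h.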

How the results depend on the processing

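No named gene changed the sign of a called difference under any setting run. Rises outnumbered falls in the fit reported, while falls outnumbered rises with the replicate block (1667 and 2006) and the compared groups alone (1983 and 2175). The count of genes changed by dose (3889) was 5971 with each library's GC slope in the fit and 6145 with the slope and a replicate block. With the slope 3131 rose and 2840 fell, 2606 genes changed with time, 188 moved with R1881 and 212 had no R1881 call, and with slope and block 3153 fell. Without the low-count filter 33 genes moved with R1881. The cause was not tested. DESeq2 (3767), DESeq2 size factors in edgeR (3823), filterByExpr (3871), no filter (3189) and the compared groups alone (4158) stayed within 1.5 times.

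Leaving out 1 library gave 3131 to 3725 changed genes, 1208 to 1931 risen genes, 1635 to 2082 fallen genes and 60 to 103 genes without an R1881 call. The lowest count of risen genes came without the 500 nM replicate 4, where 1923 fell. Without the 500 nM replicate 1, 1296 rose and 2082 fell, and without the 2 µM replicate 3, 1541 rose and 1964 fell. Falls outnumbered rises in each of these runs. Fewer libraries were tested whenever 1 was left out.

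Same-numbered libraries did not deviate together (correlations 0.0417, 0.0164, -0.128 and -0.0625), and 1 of the 4 correlated best with its own number, so the numbers were not taken as pairs. With the replicate block 3673 genes were called, against 4222 for replicates 1 to 4 without it, a setting chosen after seeing the data. The named genes lost their call in 15 cases under other settings and 25 when a library was left out. FASN gained a call with the GC slope, and RDH10 and FASN with slope and block. With 4 and 5 libraries and 19359077 to 24973835 reads, genes at a few CPM such as MGP, WNK3 and CYP1A1 lay near the threshold.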

Other observations

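The list counts in this section are to be read against 10.4% of all genes tested rising and 9.75% falling. Signalling lists had calls in both directions. Among 21 WNT ligands and feedback genes, 5 rose and 2 fell (median log2 difference 0.14), and 3 rose without the 2 µM replicate 3 or 4 or the 500 nM replicate 1 or 4. Beside WNT2, the ligands WNT5A and WNT10B rose by 0.82 and 0.69, and the receptors FZD5 and FZD8 fell by 0.81 and 0.73. FZD5 read 56.7 to 61.6 CPM with 500 nM and 31.8 to 36.0 CPM with 2 µM, without overlap. Of 31 genes of PI3K, AKT and mTOR signalling, 5 fell (16.1%) and 2 rose (6.45%), with a median of −0.03. Only 1 rose without the 2 µM replicate 3 or the 500 nM replicate 1 or 2. MTOR, the kinase of the pathway, fell by 0.18, and FOXO3, a transcription factor held in check by AKT, rose by 0.15. In the insulin-like growth factor list of 12 genes, IGF1R and IGF2R fell and IGFBP3 rose (median 0.13), and 2 rose without the 2 µM replicate 5. Among 13 ERK feedback genes 3 fell and 1 rose (median −0.04), and 1 fell without the 500 nM replicate 4. JUN, a subunit of AP-1, rose by 0.45 and SPRED2, an inhibitor of RAS signalling, fell by 0.16.

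Of 22 p53 targets and apoptosis genes 5 rose and 3 fell (median −0.01). Without the 500 nM replicate 1, as with the compared groups alone, 3 rose and 5 fell, and 3 rose without the 500 nM replicate 4 or the 2 µM replicate 1. SESN1, a stress-induced inhibitor of mTORC1, rose by 0.59 and BCL2L1, an inhibitor of apoptosis, fell by 0.35. In the neuroendocrine and basal list 4 of 12 rose and 3 fell (median −0.01), and 1 fell without the 2 µM replicate 5. CHGB, a granin of secretory granules, rose by 0.34 and INSM1, a neuroendocrine transcription factor, fell by 0.37. The summed level of that list was 308 to 317 CPM with 2 µM and 274 to 289 CPM with 500 nM. Of 12 luminal genes 4 fell and 0 rose (median −0.17), KRT18 by 0.35 and OCLN, a tight junction protein, by 0.39, and the summed level was 1708 to 1821 CPM against 1932 to 2021 CPM. Whether cell composition plays a part was not tested.

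Among 16 genes of MHC class I presentation 6 fell and 2 rose (median −0.14), and 1 rose without the 2 µM replicate 4 or the 500 nM replicate 1 or 4. B2M, the shared light chain, read 210 to 237 CPM with 500 nM and 156 to 173 CPM with 2 µM, and HLA-B fell by 0.83. Of 15 steroid receptor chaperones 4 rose and FKBP5 fell (median 0.11), and 0 rose without the 500 nM replicate 1 or 4 and 1 without the 2 µM replicate 3. Falls numbered 2 without the 2 µM replicate 3 or the 500 nM replicate 1. Of 18 coregulators and lineage factors 3 rose and 2 fell (median −0.04). Without the 500 nM replicate 1, 1 rose and 5 fell, without the 2 µM replicate 3, 4 fell, and 6 fell with the compared groups alone, the replicate block or the GC slope. NCOA2, a coactivator, rose by 0.20, and its call was lost without the 500 nM replicate 1 (adjusted p = 0.0589). Of 13 mitochondrially encoded genes 1 fell, MT-ND6 by 0.60 (median 0.08), and its call was lost without the 2 µM replicate 1 (adjusted p = 0.0625) or 5 (0.0727) or the 500 nM replicate 2 (0.0524) or 3 (0.0713).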
